A study of Mus musculus with 5 samples.

Results

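Themis, Themis2, Grb2, Ptpn6 and Ptpn11 were followed through single nuclei of mouse liver to ask whether hepatocyte nuclei that carried Themis RNA in metabolic dysfunction-associated steatohepatitis (MASH) carried the RNA of its partners too. The 5 genes, out of 32285 in the count tables, were chosen by name. Themis was chosen by its level in these same hepatocyte nuclei, which was known to be higher in MASH, so its values there are a description with no test. Themis2 was taken as its relative, and Grb2, Ptpn6 and Ptpn11 as the genes of proteins that bind THEMIS in T cells. Livers came from wild-type male C57BL6/J mice kept on regular chow (3 libraries) or on a MASH diet (2 libraries) in which fat gave 40% and fructose 20% of the calories and cholesterol made up 2%. Feeding began at 10 to 12 weeks of age and lasted 5 months in both groups. Nuclei were isolated from frozen liver, sorted by flow cytometry and counted with a droplet-based 3′ assay. Whether a library held 1 mouse or several is not stated in the sources used here, so the library was the replicate and p-values measure the spread between libraries.

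THEMIS is an adaptor of the T cell receptor pathway that is needed for thymocyte selection, and it is constitutively bound to GRB2, the adaptor that links phosphorylated receptors to the Ras activator SOS. Through GRB2 it meets the phosphatases SHP-1, encoded by Ptpn6, and SHP-2, encoded by Ptpn11. SHP-1 mostly dampens signalling in blood cells, SHP-2 mostly carries growth factor signals to Ras and ERK in many cell types, and THEMIS2 serves B cells and myeloid cells.

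In the annotation (GRCm38, GENCODE M21) Themis lay on the forward strand at chr10:28668360-28883818, and the other genes lay on the reverse strand, Themis2 at chr4:132781843-132796387, Grb2 at chr11:115644045-115708597, Ptpn6 at chr6:124720707-124738714 and Ptpn11 at chr5:121130533-121191397. Themis spread 10 merged exons over 215459 bp and Themis2 spread 6 over 14545 bp. The longest open reading frames of their transcripts encoded 636 and 663 residues, with 35.3% identity over 597 aligned positions. Those of Ptpn6 and Ptpn11 encoded 597 residues each, with 57.9% identity over 575 positions, and that of Grb2 encoded 217. Promoters are shown because Themis and Themis2, the relatives compared most closely here, and Ptpn11, a partner counted in all classes, start in unlike sequence. Each runs from 250 bases before to 50 after a RefSeq start (GRCm38.p6), 5′ to 3′ on the gene's strand, with every CG in capitals. They lie at chr10:28668110-28668409 (forward strand), chr4:132796315-132796614 (reverse) and chr5:121191348-121191647 (reverse).
Themis: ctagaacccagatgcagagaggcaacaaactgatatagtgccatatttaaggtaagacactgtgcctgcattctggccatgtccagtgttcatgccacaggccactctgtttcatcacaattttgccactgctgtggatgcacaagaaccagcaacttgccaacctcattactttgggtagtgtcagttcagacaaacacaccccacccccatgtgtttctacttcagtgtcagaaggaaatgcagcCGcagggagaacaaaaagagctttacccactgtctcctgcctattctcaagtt
Themis2: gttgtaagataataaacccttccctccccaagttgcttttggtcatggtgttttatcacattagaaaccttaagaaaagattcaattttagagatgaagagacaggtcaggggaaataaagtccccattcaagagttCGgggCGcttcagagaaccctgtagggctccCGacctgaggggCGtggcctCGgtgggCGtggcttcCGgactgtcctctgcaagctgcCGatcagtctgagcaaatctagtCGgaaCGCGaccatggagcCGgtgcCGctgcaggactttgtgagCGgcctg
Ptpn11: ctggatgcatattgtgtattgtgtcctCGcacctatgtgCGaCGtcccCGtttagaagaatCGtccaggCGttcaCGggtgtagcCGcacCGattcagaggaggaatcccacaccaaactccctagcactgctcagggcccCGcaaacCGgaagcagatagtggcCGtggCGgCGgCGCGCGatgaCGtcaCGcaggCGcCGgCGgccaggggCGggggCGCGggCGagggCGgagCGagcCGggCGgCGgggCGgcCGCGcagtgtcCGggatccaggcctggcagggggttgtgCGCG

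The Themis window held 1 CG and 47.3% G and C, against a median of 7 CG and 52.67% over 32851 promoters, while that of Themis2 held 14 CG and that of Ptpn11 held 37. The window of another Themis start close downstream held 2 CG. Of the motifs searched on both strands, the nuclear receptor half-site AGGTCA, present in 16.3% of all promoters, was found in Themis2. The RUNX core TGTGGT (16.8%), the ETS core GGAAGT (23.8%), the AP-1 site TGAGTCA (5.20%) and the TATA box TATAAA (13.6%) were found in none of these 3 windows. GGAAGT was found in the Ptpn6 promoter and in 1 of 2 Grb2 promoters, and TATAAA in the other Grb2 promoter. Both Grb2 windows lie at RefSeq starts inside the GENCODE M21 span of the gene, at chr11:115699485-115699784 and chr11:115699879-115700178, not at its outer end. These matches describe letters only.

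The 5 libraries held 8633 to 12935 barcodes and 35612373 to 49137377 UMIs (counted RNA molecules), of which 7969 to 11574 nuclei per library were kept. Any pair of libraries shared 23 to 48 barcode sequences. Nuclei were grouped by clustering without the 5 genes and named by marker genes. The 2 hepatocyte-like clusters, which held most nuclei, did not meet the marker thresholds used for the other classes: the mean log2 fold of the hepatocyte markers over the remaining nuclei was 0.42 and -0.24. They were named because Hnf4a was above the level of the remaining nuclei (log2 fold 0.55 and 0.04) and no other class had 3 markers raised. Hepatocyte-like nuclei numbered 5808, 9162 and 8279 in chow libraries 1, 2 and 3 and 4701 and 4764 in MASH libraries 1 and 2. T-like nuclei were fewer, with 59, 30 and 44 in the chow libraries and 293 and 193 in the MASH libraries. Macrophage-like nuclei numbered 134, 115 and 204 in chow and 1599 and 1081 in MASH. In the macrophage-like and HSC-like (stellate) classes different clusters held most nuclei of the diets: 1598 and 1081 MASH macrophage-like nuclei lay in 1 cluster that held 42, 15 and 33 of the chow ones, and 864 and 1344 MASH HSC-like nuclei lay in 1 cluster that held 62, 2 and 2 of the chow ones, while another held 408, 176 and 5 chow and 6 and 6 MASH HSC-like nuclei. The largest endothelial-like cluster of MASH (382 and 545 nuclei) also held 613 of chow library 1, while chow libraries 2 and 3 had endothelial-like clusters of 183 and 320 nuclei nearly absent from the others. MASH library 1 had the highest median mitochondrial share (7.42% against 0.892% to 3.55%). The names fitted their markers in part. Hnf4a, the transcription factor of hepatocyte identity, was at 355 ± 72.0 CPM (counts per 1000000 UMIs of the summed class, unscaled; SD, n = 3) in chow and 162 ± 1.89 (SD, n = 2) in MASH hepatocyte-like nuclei, but it was also at 22.7 to 38.8 CPM in MASH macrophage-like, endothelial-like and HSC-like nuclei. In chow Hnf4a was at 35.8 to 177 CPM in T-like, 54.9 to 123 in endothelial-like and 27.0 to 117 in macrophage-like nuclei. In MASH T-like nuclei it was at 43.4 and 41.7 CPM. Summed over 8 markers, hepatocyte RNA was at 5156 to 16704 CPM in hepatocyte-like nuclei and at 4602 to 25816 CPM in T-like nuclei, so hepatocyte RNA was counted in every class.

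Themis RNA in hepatocyte-like nuclei was at 4.28, 0.807 and 3.34 CPM in the chow libraries (114, 27 and 132 UMIs) and at 113 and 131 CPM in the MASH libraries (2303 and 2912 UMIs). No chow library came near the MASH libraries, and chow library 2 was the lowest. Over the pooled UMIs the MASH level was 44.5 times the chow level (39.4 to 50.5, a 95% interval that covers counting error only). The fitted log2 fold change was 5.11 (95% interval 3.68 to 6.54) and ranged from 4.63 to 5.73 over 16 other settings. Neither range allows for the choice of Themis by its level in these nuclei, so both are descriptions. Of all Themis UMIs in kept nuclei, hepatocyte-like nuclei held 80.3%, 73.0% and 88.0% in chow and 86.3% and 92.4% in MASH, while T-like nuclei held 10.6%, 8.11% and 6.67% in chow and 0.936% and 0.761% in MASH.

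The RNA was spread over many nuclei. At a common depth of 1000 UMIs per nucleus, a Themis UMI was found in 0.329%, 0.0656% and 0.109% of chow and 9.29% and 9.72% of MASH hepatocyte-like nuclei, and without thinning in 1.70%, 0.295% and 1.18% against 28.7% and 31.1%. In macrophage-like nuclei, a cell type not known for Themis, the share at 1000 UMIs was 1.33% and 1.29% in MASH. The 95% intervals of these macrophage-like shares, which cover counting error only, ended at 2.22% and 2.53%. Whether the macrophage-like counts were free RNA was not tested. Themis was chosen by its level in the hepatocyte nuclei, so no conclusion is drawn from this comparison. Median depths were 3159.5 to 4269 UMIs in hepatocyte-like and 983 to 1281.5 in macrophage-like nuclei. Unthinned, 7.17% and 7.72% of MASH hepatocyte-like nuclei had exactly 2 Themis UMIs and 2.30% and 3.74% had 4 or more, up to 9 and 12 in 1 nucleus, whereas no chow nucleus had more than 4.

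The T-like class had the highest Themis level in chow. Its cluster had raised markers of natural killer (NK) cells too (mean log2 fold 3.71, 6 markers passing), beside those of T cells (4.67, 11 markers). The class may thus hold both cell types, and their shares in each diet were not measured. T-like nuclei were at 269, 75.9 and 221 CPM in chow and 77.5 and 125 CPM in MASH, from 3 to 25 UMIs per library. The groups overlapped, and the fitted log2 difference was -0.70 (SE 0.57, 95% interval -1.89 to 0.48, adjusted p = 0.835, edgeR quasi-likelihood test), a sign that turned (0.53) when nuclei were picked by Lck or Cd3e alone. Of the 5 genes Themis alone passed the filter on low counts in T-like nuclei, where 1.89% of 954 tested genes were called. In the order of Themis levels, chow T-like nuclei (mean 189 CPM) stood apart from hepatocyte-like nuclei (2.81 CPM) without overlap. In MASH, hepatocyte-like (122 CPM) and T-like nuclei (101 CPM) overlapped, and both lay above macrophage-like (14.8), endothelial-like (12.9), cholangiocyte-like (11.5) and HSC-like nuclei (11.2), 4 classes whose neighbours overlapped in turn. B-like nuclei came last with 1 UMI in all.

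T cell RNA moved with diet inside the hepatocyte-like nuclei as well, at far lower levels. The 11 T cell markers summed to 0.714, 0.777 and 1.52 CPM in chow and 3.57 and 5.25 CPM in MASH hepatocyte-like nuclei, with 8, 11 and 10 of them detected in chow and all 11 in MASH. For each UMI of Lck, Cd3e, Cd3g and Skap1 together, hepatocyte-like nuclei had 10.4, 2.45 and 4.89 Themis UMIs in chow and 100 and 59.4 in MASH, and T-like nuclei had 0.221, 0.0968 and 0.182 in chow and 0.0839 and 0.106 in MASH. In all 5 libraries the ratio was higher in hepatocyte-like than in T-like nuclei. These marker genes also served to name the T-like class, and Themis was chosen by its level in MASH hepatocyte nuclei. No conclusion is therefore drawn from this order. The part of T cell RNA was not tested beyond these ratios.

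**Figure D1:**
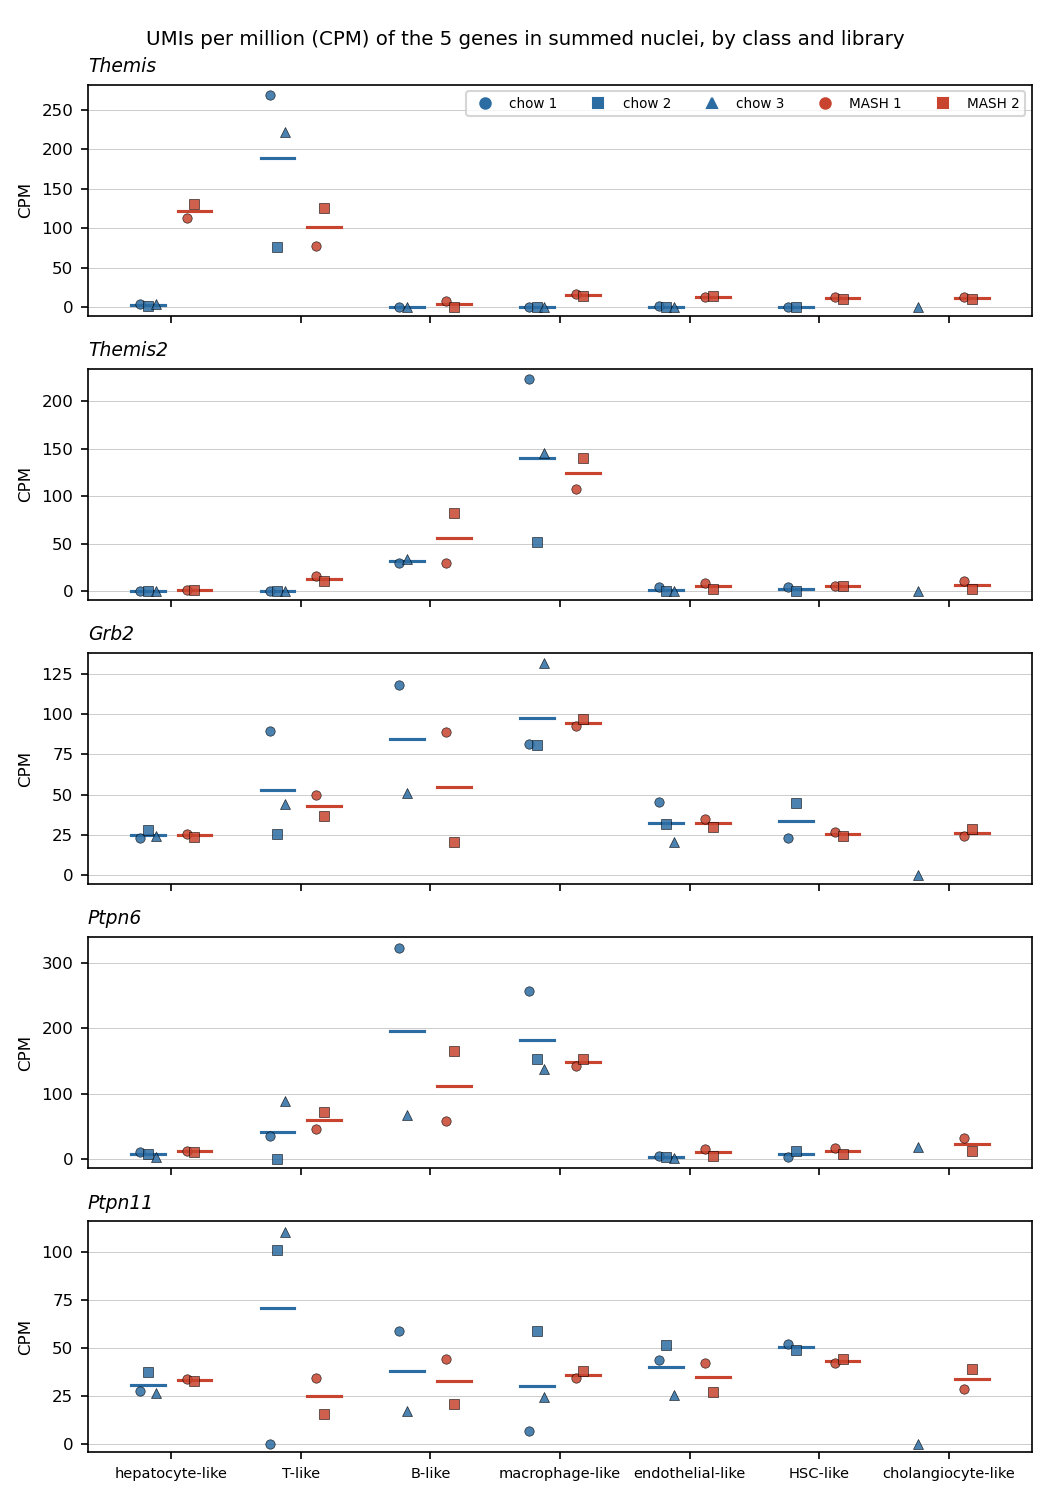
Level of each gene (y axes, CPM) by class of nuclei (x axis), with a point per library that held at least 20 nuclei (blue chow, red MASH) and a bar at the group mean where there were at least 2 points. Themis stands at 113 and 131 CPM in MASH hepatocyte-like nuclei, the MASH points of Grb2 and Ptpn11 lie within the chow range there, and Themis2 is highest in macrophage-like nuclei.

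Low Themis counts were also met outside hepatocytes in MASH. Macrophage-like nuclei had 0 Themis UMIs in all 3 chow libraries and 33 and 18 UMIs (16.2 and 13.3 CPM) in MASH, at least 2.88-fold higher when chow is set to a floor of 3 UMIs over the group. HSC-like nuclei had 0 against 15 and 19 UMIs, at least 2.59-fold higher by the same floor, in clusters that differed between diets as given above. Endothelial-like nuclei had 1 UMI in chow against 7 and 10 in MASH, a ratio of 17.6 with a counting interval of 2.75 to 734. These counts did not pass the filter and are descriptions. The 8 hepatocyte markers did not rise beside Themis there. In macrophage-like nuclei they summed to 9696, 23708 and 19093 CPM in chow and 9072 and 3640 CPM in MASH. The endothelial-like sums were 9932, 24997 and 23178 CPM in chow and 9831 and 4560 CPM in MASH. HSC-like sums were 8872 and 22886 CPM in chow libraries 1 and 2 and 7985 and 3126 CPM in MASH. For each 1000 UMIs of these markers, Themis stood at 17.4 and 25.3 UMIs in MASH hepatocyte-like nuclei. The ratio was 1.24 to 1.79 and 2.65 to 3.66 in the macrophage-like, endothelial-like, HSC-like and cholangiocyte-like nuclei of MASH libraries 1 and 2. The part of free hepatocyte RNA in these counts was not tested.

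The partners of Themis were counted in hepatocyte-like nuclei of both diets. Grb2 was at 22.8, 27.8 and 24.3 CPM in chow (607, 929 and 960 UMIs) and at 25.9 and 23.5 CPM in MASH (528 and 525 UMIs). Ptpn11 was at 27.6, 37.1 and 26.5 CPM in chow and at 33.6 and 32.5 CPM in MASH. For both genes the MASH libraries lay within the chow range. Ptpn6 was at 10.7, 8.55 and 3.36 CPM in chow, lowest in chow library 3, and at 13.2 and 11.7 CPM in MASH. Fewer positive nuclei and less RNA per nucleus cannot be told apart in such sums.

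None of the 4 partners was called between diets in hepatocyte-like nuclei, where 13.5% of 14910 tested genes were called, 8.97% as higher and 4.5% as lower in MASH. With TMM, the default scaling, the log2 fold change of Grb2 was -0.35 (SE 0.27; adjusted p = 0.390), and it was -0.01 when scaled by total UMIs alone. Ptpn11 had -0.21 (SE 0.26, adjusted p = 0.608), which turned to 0.12 with total UMIs. Ptpn6 had 0.48 (SE 0.39, adjusted p = 0.416). The 95% intervals ran from -0.98 to 0.27 for Grb2, from -0.82 to 0.40 for Ptpn11 and from -0.43 to 1.39 for Ptpn6, so a rise of Grb2 or Ptpn11 beyond those upper bounds lay outside the interval, whereas for Ptpn6 a rise of more than 2-fold did not. Scaling by total UMIs moved the median log2 fold change of all tested genes from -0.02 to 0.29 and the share of calls that were higher from 66.6% to 81.7%.

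Themis2, the relative, was at the edge of detection in hepatocyte-like nuclei, where it passed the filter through its MASH counts. It was counted at 15, 4 and 10 UMIs in chow (0.563, 0.120 and 0.253 CPM) and at 33 and 26 UMIs in MASH (1.62 and 1.17 CPM). The difference between diets was not called (log2 fold change 1.89, SE 0.62, adjusted p = 0.0839, unadjusted p = 0.018, edgeR). It passed the threshold with Storey q-values in place of Benjamini-Hochberg adjustment of the edgeR p (q = 0.0396). Macrophage RNA moved with it. The 10 macrophage markers, Gpnmb and Clec4f among them, summed to 14.9, 17.2 and 22.0 CPM in chow and 63.0 and 39.4 CPM in MASH hepatocyte-like nuclei, with 10, 8 and 10 detected in chow and 10 and 9 in MASH. For each 1000 UMIs of these markers Themis2 stood at 37.7, 6.94 and 11.5 UMIs in chow and 25.6 and 29.6 in MASH hepatocyte-like nuclei, and at 49.0, 16.5 and 32.0 in chow and 45.6 and 49.0 in MASH macrophage-like nuclei.

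For Ptpn6 the same ratio was 714, 497 and 153 UMIs per 1000 macrophage marker UMIs in chow and 210 and 297 in MASH hepatocyte-like nuclei, against 30.5 to 60.2 in macrophage-like nuclei of the 5 libraries. In every library the ratio of Ptpn6 was higher in hepatocyte-like than in macrophage-like nuclei, and that of Themis2 was lower. The markers below the ratio also served to name the macrophage-like class. The part of macrophage RNA was not tested beyond these ratios.

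**Figure D2:**
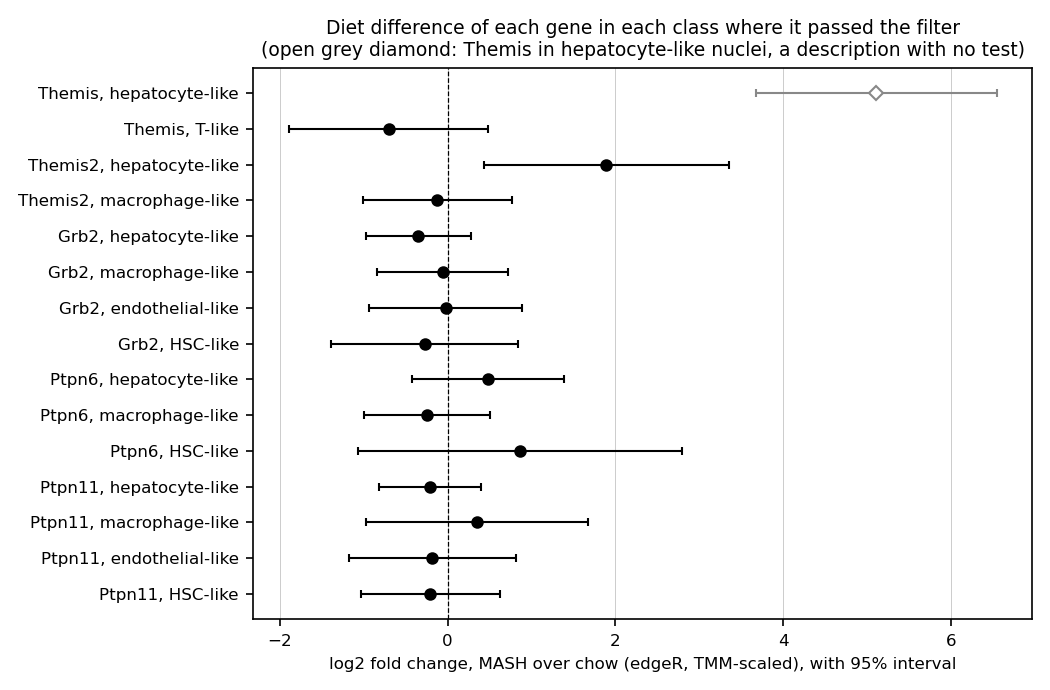
Log2 fold change of MASH over chow (x axis, TMM-scaled) with its 95% interval for each gene and class in which the gene passed the filter on low counts (y axis). All intervals but those of Themis, which is a description, and Themis2 (0.43 to 3.35) in hepatocyte-like nuclei include 0; scaled by total UMIs alone, Ptpn11 in hepatocyte-like nuclei changes sign.

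Elsewhere in the liver the partners held their own levels. Themis2 was highest in macrophage-like nuclei (223, 51.2 and 145 CPM in chow, 108 and 141 in MASH) and next in B-like nuclei (means 31.7 and 56.0 CPM), and the macrophage-like and B-like libraries did not overlap in either diet. In macrophage-like nuclei its log2 fold change was -0.13 (SE 0.41, adjusted p = 0.950). Ptpn6 was at 257, 154 and 138 CPM in chow and 142 and 154 in MASH macrophage-like nuclei, with a log2 fold change of -0.24 (adjusted p = 0.874). Grb2 was at 81.1, 80.5 and 131 CPM in chow and 92.4 and 96.9 in MASH macrophage-like nuclei (-0.06, adjusted p = 0.978). Grb2 and Ptpn6 were each lower in hepatocyte-like than in macrophage-like nuclei in every library, and Ptpn11 showed no such order, its chow and MASH means lying at 29.8 and 36.1 CPM in macrophage-like, 40.1 and 34.5 in endothelial-like and 50.4 and 43.1 in HSC-like nuclei. All 4 partners were tested in macrophage-like nuclei (1.08% of 5908 genes called), Grb2 and Ptpn11 in endothelial-like (0.721% of 8594) and Grb2, Ptpn6 and Ptpn11 in HSC-like nuclei (0.554% of 9575), the last without chow library 3, which had 7 such nuclei, and none of these tests gave a call. None passed the filter in B-like nuclei. In macrophage-like nuclei the sign of each partner turned in some of 10 other settings, where log2 fold changes ran from -0.43 to 0.18 for Themis2, -0.27 to 0.31 for Grb2, -0.41 to 0.09 for Ptpn6 and -0.12 to 1.10 for Ptpn11.

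Whether the diet difference of a partner was unlike that of another class was tested in models with library as a block. Of 16 tests, 4 partners against 4 classes, 1 was called: the diet difference of Themis2 was 1.81 higher on the log2 scale in hepatocyte-like than in macrophage-like nuclei (SE 0.47, adjusted p = 0.0149, edgeR), where 4.83% of genes were called. It was lost without chow library 3 (adjusted p = 0.0652), MASH library 1 (0.483) or MASH library 2 (0.108). The macrophage markers, as given, moved with diet in the hepatocyte-like nuclei. Ptpn6 (0.65, SE 0.36, adjusted p = 0.377), Grb2 (-0.45, SE 0.37, adjusted p = 0.598) and Ptpn11 (-0.74, SE 0.50, adjusted p = 0.505) were not called against macrophage-like nuclei. No partner was called against endothelial-like (4.5% of genes called), T-like (0.652%) or B-like nuclei (0.122%).

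The share of hepatocyte-like nuclei that held a partner was compared at 1000 UMIs per nucleus. A Grb2 UMI was found in 2.47% ± 0.0690 (SD, n = 3) of chow and 2.38% ± 0.124 (SD, n = 2) of MASH nuclei, and a Ptpn11 UMI in 2.95% ± 0.453 and 3.17% ± 0.0033. For Ptpn6 the shares were 0.772% ± 0.479 and 1.14% ± 0.122, and for Themis2 0.0405% ± 0.0404 and 0.129% ± 0.0001. Exact two-sided permutation tests over libraries, which cannot go below p = 0.1 with 3 against 2, gave p = 0.5, 0.7, 0.4 and 0.2 (adjusted 0.667, 0.7, 0.667 and 0.667). The Themis2 shares lay below those of MASH endothelial-like nuclei (1.04% and 0.643%) and are not read as expression (median depth 853.5 to 1110 UMIs in endothelial-like nuclei before thinning). In the same MASH endothelial-like nuclei Ptpn6 was found in 1.73% and 0.643%. The Ptpn6 share in hepatocyte-like nuclei was lower than that in MASH library 1 (1.22%) and higher in MASH library 2 (1.05%). Before thinning, all MASH endothelial-like nuclei held only 5 and 2 Themis2 UMIs and 9 and 4 Ptpn6 UMIs. Whether these were free RNA was not tested. Grb2 was found in 4.498% and 3.22% and Ptpn11 in 5.88% and 1.93% of the thinned endothelial-like nuclei. For these widely made genes no class that should lack them was at hand to set a background. The sign for Grb2 turned at 2000 UMIs and without thinning (0.13 and 0.33 percentage points).

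In MASH hepatocyte-like nuclei thinned to 2000 UMIs, the partners were found about as often with Themis as without. Of 712 nuclei with a Themis UMI in MASH library 1, 4.49% had a Grb2 UMI, against 5.36% of 3488 without, and in library 2 the shares were 4.58% of 764 and 3.95% of 3213. For Ptpn11 they were 7.58% against 6.05% in library 1 and 5.24% against 5.98% in library 2, and for Ptpn6 2.11% against 2.67% and 2.49% against 2.40%. The order of the pair turned between the libraries for all 3 genes. Grb2 or Ptpn11 was found in 11.9% (exact binomial 95% interval 9.65 to 14.5) and 9.42% (7.45 to 11.7) of Themis nuclei, against 11.0% and 9.65% of those without. At full depth 27.5% and 26.7% of the Themis nuclei held a UMI of Grb2 or Ptpn11. Themis2 was found in 3 of 712 and 0 of 764 Themis nuclei, and 0 of 764 allows a share of nuclei with a UMI of up to 0.393% by the floor of 3 counts (0.482% by the exact binomial interval), which limits detection at this depth, not expression.

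**Figure D3:**
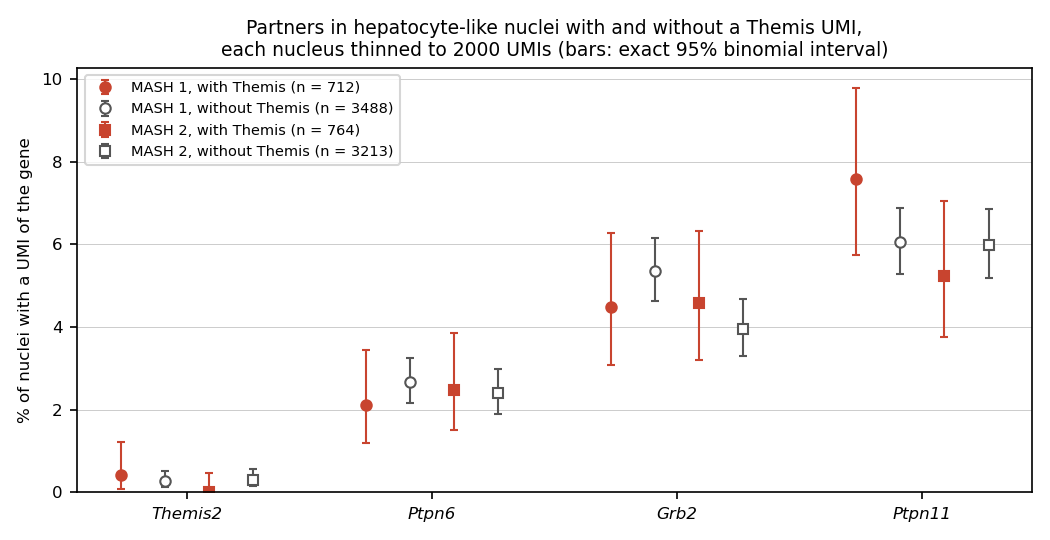
Share of MASH hepatocyte-like nuclei with a UMI of each partner (y axis, percent, after thinning to 2000 UMIs) by gene (x axis), in nuclei with a Themis UMI (filled red) and without (open grey), with exact binomial 95% intervals for counting error. The intervals with and without Themis overlap for every gene in both libraries.

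Themis was not even across hepatocyte-like nuclei. When those of each library were ordered by a pericentral minus periportal marker score, which left Themis and its partners out, and cut into 3 equal parts, MASH nuclei held 32.2 and 44.2 CPM of Themis in the periportal part, 116 and 128 in the middle and 185 and 206 in the pericentral part. In chow the parts held 0.319 ± 0.114, 0.815 ± 0.652 and 6.74 ± 4.23 CPM (SD, n = 3). The order was the same in both MASH libraries, without overlap. The partners did not follow it. Grb2 stayed between 24.1 and 25.6 CPM as a mean in all parts of both diets, and Ptpn11 between 29.7 and 36.8. Ptpn6 means were 6.77 to 8.51 CPM in chow and 12.0 to 12.8 in MASH. Between 14.0% and 17.1% of nuclei per library lay within 0.1 SD of a cut.

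**Figure D4:**
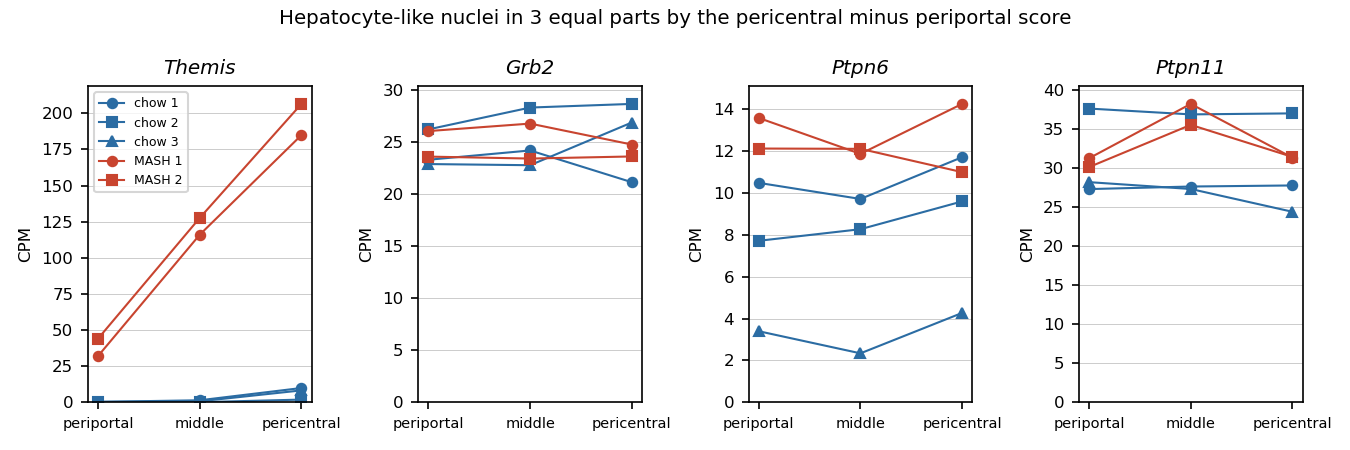
Levels (y axes, CPM) of Themis, Grb2, Ptpn6 and Ptpn11 in hepatocyte-like nuclei cut into 3 equal parts within each library by the zonal score (x axes), with a line per library (blue chow, red MASH). The Themis lines of MASH climb from 32.2 and 44.2 to 185 and 206 CPM, and those of Grb2 stay between 21.1 and 28.7 CPM in all 5 libraries.

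Nuclei were also split by the UMIs of 6 genes of disease-associated hepatocytes (Nrg1, Anxa2, Sox4, Gdf15, Klf6 and Jun) among 1000. Themis in MASH was at 75.7 and 113 CPM with 0 such UMIs, 92.8 and 110 with 1, and 106 and 114 with 2 or more. The 3 bins rose in order in MASH library 1 and differed little in library 2. This split held hepatocyte-like nuclei alone. It left out a cluster of 974 nuclei, over all libraries, that took no class name (median doublet score 0.195). Nrg1 and Gdf15 were among the top 10 genes of that cluster, so the bins do not cover all nuclei rich in these genes. Ptpn11 lay between 28.8 and 34.9 CPM and Grb2 between 17.8 and 33.1 CPM in these bins, with no common order.

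The genes closest to Themis and to Themis2 in their pattern over classes were then listed. Across 24 class-by-library sums (hepatocyte-like, T-like, B-like, macrophage-like and endothelial-like), with log2(CPM + 1) as the scale, the highest Pearson correlations with Themis among 15239 genes were those of Abcb9 (0.80), Klrd1 (0.79), Thy1 (0.78), Rbmx2 (0.78) and Ccr9 (0.78). Those of Themis2 were Nfam1 (0.985), Spi1 (0.946), Cd180 (0.941), Ciita (0.937) and Cyp4f18 (0.936), of which Spi1 encodes the myeloid transcription factor PU.1 and Ciita the regulator of MHC class II genes. Themis had correlations of -0.37 with Themis2, -0.12 with Grb2, -0.14 with Ptpn6 and -0.11 with Ptpn11. Themis2 had 0.81 with Ptpn6, 0.66 with Grb2 and -0.06 with Ptpn11. Sums of a library share its preparation and free RNA, so these are descriptions.

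Genes that work beside the partners were read from 5 lists in hepatocyte-like nuclei, where, as given, 8.97% of all tested genes were called as higher and 4.5% as lower. The filter asks for 0.376 CPM in at least 2 libraries, and of the tested genes 4 of 9, 1 of 22, 2 of 17, 1 of 14 and 3 of 9 in the lists as ordered below did not reach it on the chow libraries alone, so list counts and medians are descriptions. Of 17 genes of the T cell receptor pathway, 9 passed the filter, and 1 was called as higher: Lcp2, the adaptor SLP-76, was at 0.714, 0.329 and 0.379 CPM in chow and 3.92 and 2.96 CPM in MASH (log2 fold change 2.58, SE 0.46, adjusted p = 0.0173). Lck, the kinase that starts the pathway, had 1.20 (SE 0.60, adjusted p = 0.206) and Zap70 had -1.26 (SE 0.53, adjusted p = 0.145), and neither passed. The list had a median log2 fold change of 1.20, against -0.02 over all tested genes. Of 22 Ras and ERK pathway genes, all passed the filter and 1 was called as higher: Gab2, a docking protein that recruits SHP-2, was at 0.0751, 0.179 and 0.101 CPM in chow and 1.13 and 1.26 in MASH (2.93, adjusted p = 0.0202). It had 2, 6 and 4 UMIs in chow and 23 and 28 in MASH, and passed the filter through its MASH counts. Gab1 (0.54, adjusted p = 0.330) and Sos1 (-0.33, adjusted p = 0.367) did not pass, and the median of the list was 0.00.

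Of 17 genes whose transcription follows ERK, 1 was called as higher and 1 as lower, against 13.5% called in either direction over all tested genes, with a list median of 0.02. Ccnd1, which encodes cyclin D1, was at 3.72, 9.98 and 5.08 CPM in chow and 54.9 and 43.7 in MASH (log2 fold change 2.64, adjusted p = 0.0153). Phlda1 was at 1345, 665 and 474 CPM in chow and 136 and 126 in MASH (-2.91, adjusted p = 0.0106). The feedback genes Dusp6 (0.40, adjusted p = 0.600) and Spry4 (0.13, adjusted p = 0.850) did not pass. Of 15 growth factor receptors, 14 passed the filter, 2 were called as higher and 1 as lower, with a median of 0.11. Egfr, the receptor of epidermal growth factor, was at 675, 1743 and 1634 CPM in chow and 83.6 and 125 in MASH (-4.10, SE 0.65, adjusted p = 0.0132), below every chow library. Csf1r (1.74, adjusted p = 0.0325) and Pdgfrb (1.86, adjusted p = 0.0390), the growth factor receptors of macrophages and of stellate cells, were the 2 called as higher. Csf1r was at 1.31, 1.29 and 1.49 CPM in chow and 6.41 and 5.16 in MASH, and Pdgfrb at 0.751, 0.419 and 0.632 CPM in chow and 2.30 and 3.23 in MASH. Csf1r is one of the macrophage markers above, and Pdgfrb is a marker of stellate cells. Met (0.23, adjusted p = 0.644) and Insr (0.15, adjusted p = 0.695) did not pass.

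Of 14 receptors that dock SHP-1 or SHP-2, 9 passed the filter and 4 were called as higher, against 8.97% of all tested genes, with a median of 1.80. Sirpa, the receptor of the CD47 signal, was at 1.62, 1.43 and 1.37 CPM in chow and 30.3 and 26.8 in MASH hepatocyte-like nuclei (log2 fold change 3.95, SE 0.27, adjusted p = 0.00127, edgeR). Its MASH levels lay far above the chow levels, and its call held in all 16 other settings. Macrophage-like nuclei carried Sirpa at 534, 461 and 390 CPM in chow and 770 and 963 in MASH. Clec12a (3.20, adjusted p = 0.00860) and Lair1 (2.93, adjusted p = 0.00994), myeloid receptors, rose too, as did Pirb (1.80, adjusted p = 0.0491), named here after its values were seen. Clec12a and Lair1 passed the filter through their MASH counts. Ceacam1, a docking receptor made by hepatocytes, had -0.03 (adjusted p = 0.957). The 10 macrophage markers summed to 14.9, 17.2 and 22.0 CPM in chow and 63.0 and 39.4 CPM in MASH hepatocyte-like nuclei. In MASH macrophage-like nuclei they summed to 2357 and 2868 CPM. No ratio to these markers was taken for the receptors, and the part of macrophage RNA in their calls was not tested. In hepatocyte-like nuclei without a UMI of Lck, Cd3e, Cd79a, Gpnmb, Clec4f or Ptprb, markers of the other classes, Sirpa kept a log2 fold change of 3.95 (adjusted p = 0.00141, edgeR), and the calls of Clec12a and Lair1 held, while those of Pirb (adjusted p = 0.0605, edgeR) and Pdgfrb (adjusted p = 0.0580, edgeR) were lost. Free RNA in nuclei without these UMIs was not tested. Apart from that of Sirpa, every call named from the 5 lists was lost without MASH library 1 and without MASH library 2, where adjusted p (edgeR) rose as far as 0.0996 for Clec12a and 0.316 for Pdgfrb. The calls of Lcp2, Csf1r, Pdgfrb and Pirb were lost without chow library 2 as well, and that of Pirb without chow library 1. No called gene of the lists changed direction in the 16 other settings. The 8 genes of the T cell receptor list that did not pass the filter had at most 28 UMIs each.

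**Figure D5:**
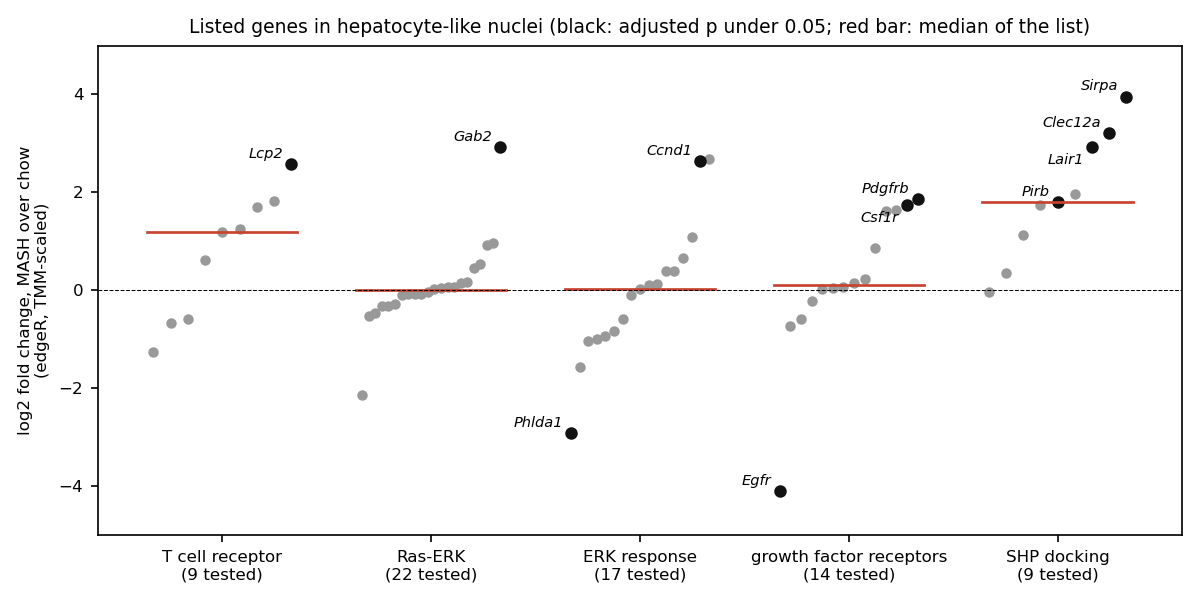
Log2 fold change of MASH over chow (y axis, TMM-scaled) of the tested genes of 5 lists (x axis) in hepatocyte-like nuclei; black points were called, grey points were not, and red bars are list medians. Most genes of the Ras-ERK, ERK response and receptor lists lie near 0, Egfr is lowest at -4.10 and Sirpa highest at 3.95.

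The genes next to the members on the chromosomes were read in the same way. Ptprk, a receptor phosphatase gene 70963 bp from Themis on the same strand, was at 170 ± 24.5 CPM (SD, n = 3) in chow and 176 ± 2.26 (SD, n = 2) in MASH hepatocyte-like nuclei (log2 fold change -0.29, adjusted p = 0.505). Rpa2, beside Themis2, was called as higher (1.31, adjusted p = 0.0495), and it lost the call without chow library 1 or 2, without MASH library 1 or 2 (adjusted p up to 0.331, edgeR) and in most other settings. Grb2 and Ptpn11 overlap the gene models Gm11702 and Gm42930 on the same strand, so reads of these pairs may have been shared or dropped, and their levels are uncertain to that extent. Gm20531, on the strand opposite Ptpn6, had 2 UMIs in chow and 3 in MASH hepatocyte-like nuclei.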

How the data were processed

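The values used are the deposited UMI counts, unnormalised, which the authors obtained for every gene of every nucleus with Cell Ranger 8.0.1. The paper's methods state alignment to GRCm38 without intronic reads, so counts rest on exonic reads. Nuclei with at least 300 genes were kept and the top 0.8% of doublet scores per 1000 nuclei were removed (Scrublet in scanpy 1.11.5; its automatic threshold could not be used). Classes were rebuilt in Seurat 5.3.0 (3000 variable genes without the members and listed genes, 15 components, resolution 0.2; other nuclei again with 30 components at 0.5) and named from markers by thresholds set after the data were seen, the hepatocyte-like clusters by Hnf4a and the lack of other classes' markers; names can differ from the study's. Counts were summed per library and class (at least 20 nuclei) and tested with edgeR 4.0.16 in R 4.3.3 (quasi-likelihood, TMM, filterByExpr, Benjamini-Hochberg, threshold 0.05). CPM are unscaled; SE is the log2 fold change over the root of F. DESeq2 1.42.0, q-values and other settings were alternatives. The fit was tested on simulated data. Members and lists were chosen with earlier results of these data known. The listed genes named are, per list and direction, up to 3 with the smallest adjusted p, and genes not called are given as examples; nearest neighbours and the 5 closest genes by correlation are also named. No residue sequence was used here. Some genes of the lists and some neighbouring genes are not reported here by name.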

Additional observations from a re-analysis of the deposited data

Results flagged for a closer look

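Of 16 partner tests of diet differences between classes, 1 was called, in a comparison where 4.83% of all genes were called. This was the diet difference of Themis2, which differed between hepatocyte-like and macrophage-like nuclei by a test of the difference itself (1.81 on the log2 scale, SE 0.47, adjusted p = 0.0149, edgeR). It rests on 29 chow and 59 MASH UMIs in hepatocyte-like nuclei and was lost without chow library 3 (adjusted p = 0.0652), MASH library 1 (0.483) or MASH library 2 (0.108, all edgeR). The 10 macrophage markers summed to 14.9, 17.2 and 22.0 CPM in chow and 63.0 and 39.4 CPM in MASH hepatocyte-like nuclei, and their part in it was not tested. In the fit of hepatocyte-like nuclei Themis2 passed the filter through its MASH counts, and its share of those nuclei was not read as expression.

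Nuclei that took no class name, which enter no comparison above, held Themis at 37.5 and 49.6 CPM in MASH libraries 1 and 2, above 3.56, 1.08 and 2.12 CPM in the chow libraries. They numbered 2798 and 668 in MASH and 532, 1817 and 973 in chow. Among them was the cluster of 974 nuclei, over all libraries, with Nrg1 and Gdf15 among its top 10 genes. Another held 2482 nuclei with a median mitochondrial share of 48.2%, so the pooled levels mix unlike clusters and stand for none of them. With doublet calls kept, Themis and Nrg1 were both among the top 10 genes of an unnamed cluster of 1967 nuclei (median doublet score 0.282).

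Themis3, the remaining relative of Themis, had 6 UMIs in cholangiocyte-like nuclei of MASH (3 in each library) and 0 in those of chow. The chow libraries held 70 such nuclei in all, and 3 UMIs would stand at 56.3 to 243 CPM there against 6.58 and 1.65 CPM measured in MASH, so a difference was not detectable at this depth.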

How the results depend on the processing

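Genes called in hepatocyte-like nuclei numbered 2008, against 3362 by DESeq2 and 3872 with Storey q-values, and 142 (without MASH library 2) to 2812 (without chow library 1) when a library was left out; MASH library 1 (172) and chow library 2 (924) also lowered the count by over 1.5 times. DESeq2 called 1785 as higher and 1577 as lower. With Storey q-values 1 partner, Themis2, was called (log2 fold change 1.89); in all other settings none was. Ptpn11 turned to 0.12 with total UMIs.

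In T-like nuclei 18 genes were called, 31 without the filter on low counts and 14 to 37 with a library left out; Themis turned to 0.53 with nuclei picked by marker. In macrophage-like nuclei 64 genes were called, against 332 without the filter, 209 with total UMIs, 140 by marker and 35 to 111 with a library left out. In endothelial-like nuclei the 62 calls became 303, 175, 199 and 9 to 118, and in HSC-like nuclei the 53 calls became 368 without the filter, 246 with total UMIs, 87 with doublets kept and 28 to 290. In each of these 3 classes 1 member, Themis, was called without the filter, and by marker 1 in macrophage-like and 1 in endothelial-like nuclei, against 0 or 1 chow UMIs where classes came from clusters; the cause was not tested. Without chow library 1 or 2 Themis was tested and not called in macrophage-like (adjusted p = 0.211 and 0.177) and HSC-like nuclei (0.445 and 0.432, edgeR). Reversed values, all far from any call, were 0.0483 (no filter) and 0.0143 (by marker) for Grb2, 0.0093 for Themis2 and 0.0914 for Ptpn6 (by marker) in macrophage-like nuclei, and 0.0936 for Grb2 in HSC-like nuclei with doublets kept. With a library left out, ranges were -0.43 to 0.18 (Themis2), -0.27 to 0.31 (Grb2) and -0.12 to 1.10 (Ptpn11) in macrophage-like, -0.30 to 0.27 (Grb2) and -0.70 to 0.27 (Ptpn11) in endothelial-like, and -1.002 to 0.34 (Grb2) and -0.24 to 1.80 (Ptpn6) in HSC-like nuclei. The Themis2 interaction ranged from 1.505 to 2.03, and 0 to 1 of 16 partner tests were called. The Grb2 share turned to 0.127 (2000 UMIs) and 0.330 points (no thinning), and that of Ptpn11 ranged from -0.0172 to 0.432 points.

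By default libraries were not paired by replicate number, and chow library 3 has no same-numbered MASH library. Deviations of same-numbered libraries had correlations of -0.108 and -0.229. With 2 MASH libraries their deviations mirror each other, so these correlations cannot settle whether samples were paired. With the replicate number as a block, calls numbered 2176 in hepatocyte-like, 7 in T-like, 6 in macrophage-like and 131 in HSC-like nuclei; no partner was called in hepatocyte-like nuclei (Themis2 2.07, Grb2 -0.22, Ptpn6 0.19, Ptpn11 -0.15), and Themis2 and Grb2 turned to 0.0949 and 0.25 in macrophage-like nuclei. Adding the unnamed hepatocyte-endothelial cluster and scaling by total UMIs were chosen after seeing the data. A block or marker fit in B-like nuclei and a test in cholangiocyte-like nuclei were not run.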
